A study of Mus musculus with 4 samples.

Results

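The hypoxia-inducible factor (HIF) pathway was followed through 10 genes in AML12 cells, an immortalised mouse hepatocyte line from the CD-1 strain. The genes were taken by symbol, 10 of 10 were found among the 13422 genes of the deposited table, and 10 of 10 passed the filter for testing, a mean of 1 or more in CPM, reads scaled to library size. Of the 10, 5 belong to the oxygen-sensing arm (Hif1a, Vhl, Egln1, Egln2 and Egln3) and 5 are transcripts that HIF is known to induce (Pdk1, Ndrg1, Bnip3, Ankrd37 and Vegfa). The Control group held 2 libraries, replicates 1 and 3, from cells given pCMV6-AC-GFP. The Chrna4 group held 2 libraries, replicates 1 and 2, from cells given PAV-TBG-P2A-GFP-Chrna4, which carries a nicotinic acetylcholine receptor subunit gene. All cells were used at passage 3 to 5 in a medium with insulin, transferrin, selenium, 40 ng/ml dexamethasone and 10% serum, and the labels mention no hypoxia. The groups differed in the plasmid backbone as well as in the insert, untransfected cells were not analysed here, and the share of cells that took up plasmid was not given.

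In normal oxygen, the prolyl hydroxylases encoded by the Egln genes mark HIF alpha subunits, which the VHL ubiquitin ligase then directs to the proteasome. When oxygen falls, the alpha subunit accumulates, pairs with ARNT and binds hypoxia response elements, whose core is ACGTG or GCGTG. Hepatocytes meet a natural oxygen gradient along the liver lobule, and HIF targets there serve glucose use, angiogenesis and the removal of mitochondria. Much of the control of HIF1A is on its protein, which RNA does not measure.

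Libraries held 31301396 to 32228360 reads on listed genes, and a single read was worth 0.0308 to 0.0325 CPM. The transfected gene, Chrna4, had 2678 reads in Chrna4 1 and 2290 in Chrna4 2, against 1 read in Control 1 and 3 in Control 3. Hepatocyte and epithelial markers were present, with Krt8 at 1343 to 1415 CPM and Hnf4a at 217 to 248 CPM in the 4 libraries, although Apoa1 stayed below 1 CPM. Of 6 hepatocyte and epithelial markers tested, 2 fell in Chrna4 and 0 rose. Alb, the albumin gene, fell from 17.8 and 19.0 CPM in the Control libraries to 7.93 and 8.51 CPM in the Chrna4 libraries, and Ttr from 58.2 and 48.3 to 28.0 and 23.8 CPM. The summed level of this list of 7 was 3467 to 3474 CPM in Control and 3427 to 3511 CPM in Chrna4. Most of this sum came from the keratin genes Krt8 and Krt18, the latter at 1729 to 1837 CPM in the 4 libraries. The sum therefore says little about Alb and Ttr. Of 4 biliary markers tested, 2 fell and 0 rose, the keratin genes Krt19 (491 and 532 to 300 and 297 CPM) and Krt7 (48.5 and 52.5 to 34.9 and 32.3 CPM). The summed biliary level was 809 to 874 CPM in Control and 605 to 631 CPM in Chrna4. The part of these marker changes in the results on the HIF genes was not tested. Of 15 fibroblast, endothelial and macrophage markers, 4 were listed, and Cd68 alone reached a mean of 1 CPM (3.64 to 5.14 CPM). In bulk RNA of this kind, fewer cells that express a gene and less RNA per cell cannot be told apart. The labels do not say whether replicates came from separate cultures, so the p-values reflect sample spread that may be purely technical.

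Of the 10 genes, 5 fell in the Chrna4 libraries and 0 rose: Egln3, Pdk1, Ndrg1, Bnip3 and Ankrd37. Over all 11298 genes tested, 15.9% changed by the same rule (limma-trend, adjusted p under 0.05), 6.66% falling and 9.26% rising. These were 752 lower and 1046 higher genes, a balance that turned to 1179 lower and 812 higher with library totals as the scaling. On recovered reads edgeR also called these 5 members lower and DESeq2 called 4, Bnip3 being lost, where 6.78% and 5.43% of all genes were lower. Of the 5 induced targets 4 fell, and of the 5 genes of the oxygen-sensing arm 1 did, Egln3, which HIF also induces. The difference between the arms was not tested. The median change of the 10 was -0.34 on the log2(CPM + 1) scale, against -0.0028 for all genes tested. Both Chrna4 libraries lay below both Control libraries for 7 of the 10 genes, which was so for 28.8% of all genes tested. These 7 included Egln1 and Vegfa, which did not pass the test. Levels below are deposited CPM, folds and percentages are ratios of mean CPM, and means carry the SD with n = 2.

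**Figure D1:**
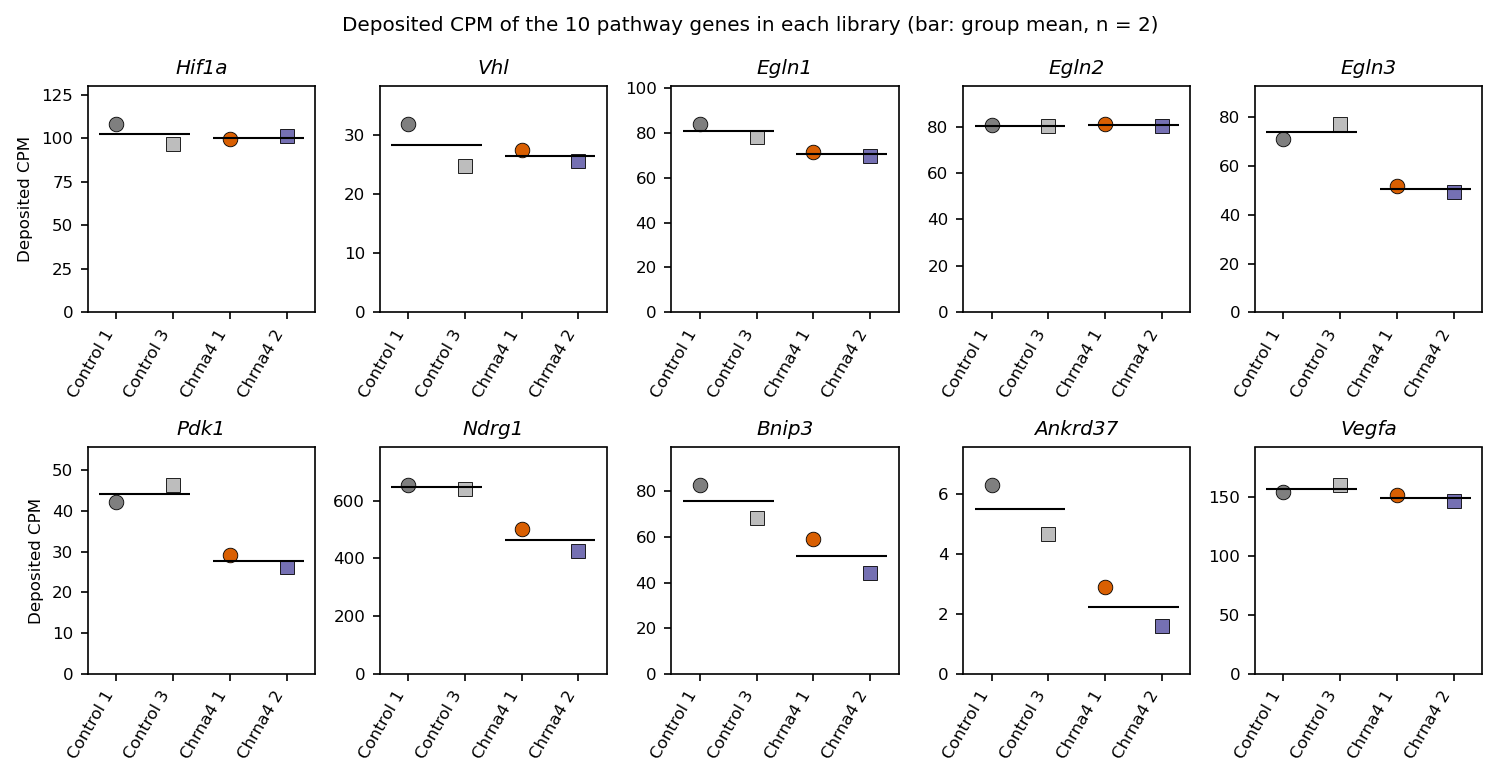
Deposited CPM of each of the 10 genes (vertical axes, each from 0) in each of the 4 libraries, with circles for replicate 1, squares for replicate 3 or 2, and a bar at each group's mean of n = 2. Egln3, Pdk1, Ndrg1, Bnip3 and Ankrd37 stand lower in both Chrna4 libraries, whereas Hif1a, Vhl and Egln2 overlap between the groups.

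The largest relative decrease among the 10 was in Ankrd37, an ankyrin-repeat protein gene whose transcript is a known HIF target (ENSMUSG00000050914; GRCm38 chromosome 8, 45996902 to 46005707, minus strand). Ankrd37 stood at 6.28 CPM in Control 1 and 4.67 CPM in Control 3, against 2.89 CPM in Chrna4 1 and 1.58 CPM in Chrna4 2. The groups did not overlap, and Chrna4 2 was the lowest library. The mean fell by 59.1%, from 5.47 ± 1.14 to 2.24 ± 0.927 CPM (SD, n = 2), a log2(CPM + 1) change of -1.02 (SE 0.22, adjusted p = 0.00725 by limma). This was rank 15 from the lowest of 11298 changes. The pseudocount of 1 understates the change of so low a gene, and on recovered reads without it edgeR gave a log2 change of -1.29 (adjusted p = 0.0104). Depth was the limit here, with 204 and 151 reads in the Control libraries against 89 and 50 in the Chrna4 libraries. Exons of Ankrd37 overlap those of Lrp2bp by 349 bases and of Ufsp2 by 57 bases on the opposite strand. The strand setting of the counting was not stated, so the assignment of reads in the shared stretches is uncertain. Ufsp2, a protease gene of the UFM1 pathway, stood at 31.3 ± 0.684 CPM in Control and 29.5 ± 1.58 CPM in Chrna4. Lrp2bp was at 0.339 CPM in Control 1 and 1.14 CPM in Control 3, against 0.715 CPM in Chrna4 1 and 0.253 CPM in Chrna4 2.

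Pdk1 (ENSMUSG00000006494; chromosome 2, 71873224 to 71903858, plus strand) encodes a pyruvate dehydrogenase kinase that keeps pyruvate out of the citric acid cycle. Pdk1 was at 42.2 CPM in Control 1 and 46.3 CPM in Control 3, against 29.2 CPM in Chrna4 1 and 26.3 CPM in Chrna4 2. Both Chrna4 libraries were well under both Control libraries. The decrease of 37.2% was a log2(CPM + 1) change of -0.65 (SE 0.09, adjusted p = 0.000318 by limma), rank 116 from the lowest. Its direction and call held under each alternative run.

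Bnip3 (ENSMUSG00000078566; chromosome 7, 138890836 to 138909519, minus strand) encodes a mitochondrial outer membrane receptor for mitophagy, the removal of mitochondria by autophagy. Its level was 82.7 CPM in Control 1 and 68.5 CPM in Control 3, against 59.1 CPM in Chrna4 1 and 44.1 CPM in Chrna4 2. The groups did not overlap, but each group's own pair was spread, with an SD of 10.1 CPM in Control and 10.6 CPM in Chrna4. The mean fell by 31.8%, with a log2(CPM + 1) change of -0.55 (SE 0.12, adjusted p = 0.00953 by limma). This was the least secure call of the 5. Without Chrna4 2 the change was -0.34 and missed the threshold (adjusted p = 0.0571 by limma), and DESeq2 on recovered reads gave an adjusted p of 0.135. Annotated transcripts of 5 other genes, pseudogenes among them, match Bnip3 at 95% identity or more over at least 150 bases, so its level depends on how the authors' counting treated reads with several matches.

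Ndrg1 (ENSMUSG00000005125; chromosome 15, 66929318 to 66969640, minus strand), a stress-responsive gene linked to differentiation and lipid trafficking, was the most abundant of the 10. Ndrg1 reached 654 CPM in Control 1 and 642 CPM in Control 3, against 503 CPM in Chrna4 1 and 424 CPM in Chrna4 2. The Control libraries were nearly equal and the Chrna4 libraries lower and further apart, with SDs of 8.35 and 55.5 CPM. The decrease was 28.4%, a log2(CPM + 1) change of -0.49 (SE 0.07, adjusted p = 0.000770 by limma).

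Vegfa (ENSMUSG00000023951; chromosome 17, 46016993 to 46032369, minus strand) encodes the vascular endothelial growth factor, a classical HIF target that draws in blood vessels. Unlike the other four targets it did not pass the test. It stood at 154 CPM in Control 1 and 160 CPM in Control 3, against 152 CPM in Chrna4 1 and 146 CPM in Chrna4 2. The Chrna4 libraries were lower by 5.03% in the mean, a log2(CPM + 1) difference of -0.07 with a 95% interval of -0.20 to 0.05 (adjusted p = 0.443 by limma). With 4616 to 5171 reads per library, counting error was small, and the interval leaves out a decrease as large as the -0.49 of Ndrg1. The difference between the changes of Vegfa and the other targets was not itself tested.

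**Figure D2:**
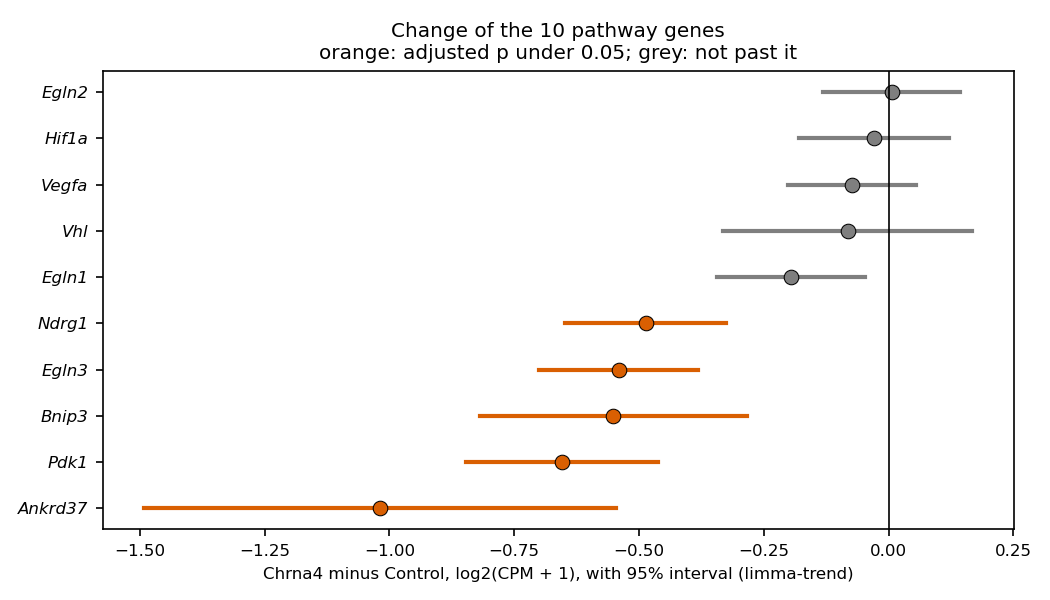
Difference between Chrna4 and Control in log2(CPM + 1) for the 10 genes (horizontal axis), with 95% intervals from limma-trend, n = 2 libraries per group. Points run from Egln2 at 0.01 to Ankrd37 at -1.02, and the 5 genes in orange passed the threshold of 0.05 on the adjusted p.

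Since 4 of the 5 induced targets fell, the proximal promoters of the genes that fell and of Vegfa are shown where RefSeq had an entry, each as the 250 bases before the 5′-most RefSeq start on GRCm38.p6, read 5′ to 3′ on the gene's strand. Capitals mark ACGTG and GCGTG, the cores of hypoxia response elements, searched on both strands, and matches that overlap each other are joined. The 4 members shown first fell and the fifth, Vegfa, is shown as the target that did not pass the test. The windows are chr8:45999851-46000100 (minus strand) for Ankrd37, chr7:138909507-138909756 (minus strand) for Bnip3, chr2:71872974-71873223 (plus strand) for Pdk1, chr12:54203875-54204124 (minus strand) for Egln3 and chr17:46032378-46032627 (minus strand) for Vegfa. The Ankrd37 window lies inside the gene span given above, whose annotation starts further upstream than RefSeq does.
Ankrd37: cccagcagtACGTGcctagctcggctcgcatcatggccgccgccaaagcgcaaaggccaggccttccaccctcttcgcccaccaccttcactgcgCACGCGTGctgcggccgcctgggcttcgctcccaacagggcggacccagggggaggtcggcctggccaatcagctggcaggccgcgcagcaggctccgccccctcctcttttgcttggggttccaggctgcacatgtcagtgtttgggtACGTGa
Bnip3: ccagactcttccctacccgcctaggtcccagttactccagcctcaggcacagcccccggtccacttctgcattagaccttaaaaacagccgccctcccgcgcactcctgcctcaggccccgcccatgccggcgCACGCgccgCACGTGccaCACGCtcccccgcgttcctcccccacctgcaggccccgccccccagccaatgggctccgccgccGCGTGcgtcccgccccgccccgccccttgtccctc
Pdk1: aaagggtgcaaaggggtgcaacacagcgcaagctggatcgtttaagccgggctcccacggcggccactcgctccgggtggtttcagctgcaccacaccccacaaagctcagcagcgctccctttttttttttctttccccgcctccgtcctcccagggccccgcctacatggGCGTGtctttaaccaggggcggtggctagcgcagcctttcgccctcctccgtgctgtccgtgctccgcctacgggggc
Egln3: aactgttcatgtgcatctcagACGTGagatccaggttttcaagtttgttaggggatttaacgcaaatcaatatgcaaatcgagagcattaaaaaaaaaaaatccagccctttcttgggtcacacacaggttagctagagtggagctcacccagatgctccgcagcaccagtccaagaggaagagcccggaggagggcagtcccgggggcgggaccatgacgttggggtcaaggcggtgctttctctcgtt
Vegfa: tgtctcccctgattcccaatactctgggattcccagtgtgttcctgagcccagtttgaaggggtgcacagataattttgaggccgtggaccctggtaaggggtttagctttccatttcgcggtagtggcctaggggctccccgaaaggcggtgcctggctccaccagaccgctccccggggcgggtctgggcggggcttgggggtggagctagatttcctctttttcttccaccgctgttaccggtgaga

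Matches that cross the start were not counted. The window of Hif1a, not shown, also lies inside the annotated span of its gene. Ankrd37 held 4 matches, 1 of them within the last 6 bases before the start, and Bnip3 held 5, among them a CACGTG palindrome that counts on both strands. Pdk1 and Egln3 held 1 match each, and Vegfa held 0 in this window. Its known element lies further upstream. Among members that did not pass the test, Hif1a held 3 matches, Egln1 2, Egln2 4 and Vhl 0. So 7 of the 9 member promoters with an entry held a core, and there was no entry for Ndrg1. Cores this short are common, since 58.6% of 8436 promoters of tested genes and 38.6% of all 27025 promoters held at least 1. The matches describe the letters of the window and are not evidence of binding.

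In the oxygen-sensing arm, Egln3 was the gene that fell (ENSMUSG00000035105; chromosome 12, 54178981 to 54203860, minus strand). It encodes the prolyl hydroxylase PHD3, which is itself strongly induced by HIF and so belongs to both arms. Egln3 measured 70.8 CPM in Control 1 and 77.3 CPM in Control 3, then 51.7 CPM in Chrna4 1 and 49.4 CPM in Chrna4 2. The groups were clearly apart and the Chrna4 libraries close to each other. The mean fell by 31.7%, a log2(CPM + 1) change of -0.54 (SE 0.07, adjusted p = 0.000318 by limma), and the call held under each alternative run.

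Egln1 (ENSMUSG00000031987; chromosome 8, 124908587 to 124949324, minus strand) encodes PHD2, the main oxygen sensor of most cells and also a HIF target. It stood at 84.0 CPM in Control 1 and 78.0 CPM in Control 3, against 71.4 CPM in Chrna4 1 and 69.7 CPM in Chrna4 2. The groups did not overlap, yet the log2(CPM + 1) difference of -0.20 (SE 0.07) missed the threshold (adjusted p = 0.0728 by limma). It passed with library totals as the scaling (adjusted p = 0.0256 by limma). Without Control 3, which leaves 1 Control library, the difference was -0.25. Egln2 (ENSMUSG00000058709; chromosome 7, 27158658 to 27166802, minus strand), which encodes PHD1, the family member not known as a HIF target, was at 80.6 and 80.3 CPM in the Control libraries and 81.2 and 80.4 CPM in the Chrna4 libraries. Its 4 values lay within 1 CPM of each other, and the 95% interval of its log2(CPM + 1) difference ran from -0.13 to 0.14 (adjusted p = 0.962 by limma).

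Per kilobase of annotated exon, the Egln transcripts were of like abundance in Control, at 22.5 CPM per kb for Egln1, 28.7 for Egln2 and 27.8 for Egln3, with Egln2 inside the range of Egln3. In Chrna4 the order was Egln2 at 28.9, Egln1 at 19.6 and Egln3 at 19.0 CPM per kb, with Egln1 and Egln3 close to each other. Of the summed level of the trio, Egln3 made up 33.8% in Control 1 and 36.6% in Control 3, against 28.4% in Chrna4 1 and 27.8% in Chrna4 2. Its share was lower in both Chrna4 libraries, with p = 0.333 in a two-sided exact permutation test, the smallest that 2 against 2 libraries allow. The mean share of Egln2 was 36.3% in Control and 42.8% in Chrna4 (exact permutation p = 0.333), and that of Egln1 28.5% and 29.1%. Shares of the same sum depend on each other, and the level of Egln2 itself was nearly unchanged, at 28.7 and 28.9 CPM per kb. The summed level of the trio was 78.8 and 79.4 CPM per kb in the Control libraries and 68.3 and 66.7 CPM per kb in the Chrna4 libraries.

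Hif1a (ENSMUSG00000021109; chromosome 12, 73901375 to 73947530, plus strand), the oxygen-regulated alpha subunit, was at 108 CPM in Control 1 and 96.8 CPM in Control 3, against 99.6 CPM in Chrna4 1 and 101 CPM in Chrna4 2. Both Chrna4 libraries lay between the Control libraries. The log2(CPM + 1) difference was -0.03 with a 95% interval of -0.18 to 0.12 (adjusted p = 0.822 by limma), and its sign turned without Control 1. Vhl (ENSMUSG00000033933; chromosome 6, 113623959 to 113631633, plus strand), the substrate-binding part of the ubiquitin ligase, was at 31.8 CPM in Control 1 and 24.7 CPM in Control 3, against 27.3 CPM in Chrna4 1 and 25.5 CPM in Chrna4 2. The groups overlapped and the 95% interval of the log2(CPM + 1) difference, from -0.33 to 0.17, was the widest among the genes that did not pass (adjusted p = 0.687 by limma). Vhl turned on its Control pair, with a log2 difference of -0.26 without Control 3 and of 0.10 without Control 1. Each of these fits has 1 Control library.

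Per kilobase of exon, the Control means of the remaining members ran from 98.2 CPM per kb for Ndrg1 through 36.6 for Vegfa, 33.4 for Bnip3, 17.4 for Hif1a, 9.43 for Vhl and 5.69 for Pdk1 to 3.56 for Ankrd37. Vegfa and Bnip3 overlapped over the Control libraries, at 35.9 to 37.3 and 30.2 to 36.5 CPM per kb. In Chrna4 they no longer overlapped, with Vegfa at 34.1 to 35.5 and Bnip3 at 19.5 to 26.1 CPM per kb.

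The Chrna4 libraries differed in how far the targets were down. Relative to the Control mean, Chrna4 1 stood at 78.2% for Bnip3, 77.7% for Ndrg1, 66.0% for Pdk1 and 52.9% for Ankrd37. Chrna4 2 stood at 58.3% for Bnip3, 65.5% for Ndrg1, 59.5% for Pdk1 and 28.9% for Ankrd37. For Egln3 the libraries were close, at 69.8% and 66.7%, and for Vegfa at 96.8% and 93.1%.

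Chrna4 1 was above Chrna4 2 for 9 of the 10 members, Hif1a being the exception, against 49.5% of all genes tested. The ratio of Chrna4 1 to Chrna4 2, with an exact 95% interval for counting error only, was 1.34 (1.25 to 1.44) for Bnip3 and 1.18 (1.16 to 1.21) for Ndrg1. It was 1.11 (1.01 to 1.22) for Pdk1 and 1.83 (1.28 to 2.64) for Ankrd37. The interval lay above 1 for these 4 members, and for 14.1% of all genes tested. For Egln3, at 1.05, the interval of 0.976 to 1.12 included 1. The library with the weaker decrease held more reads of the transfected gene, with Chrna4 at 87.1 CPM in Chrna4 1 and 72.5 CPM in Chrna4 2. With 1 library on each side these ratios describe the libraries and carry no test.

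The Control libraries differed as well, but not in 1 direction. Control 1 was above Control 3 beyond counting error for Bnip3, at a ratio of 1.21 (1.14 to 1.28), and for Ankrd37, at 1.35 (1.09 to 1.67). It was below Control 3 for Egln3, at 0.917 (0.866 to 0.970), and for Pdk1, at 0.910 (0.845 to 0.980). Control 1 was also above for Hif1a, Vhl and Egln1, so that 5 of the 10 members had an interval above 1, as had 22.8% of all genes tested. In all, 7 of the 10 were higher in Control 1 than in Control 3, against 50.2% of all genes tested.

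**Figure D3:**
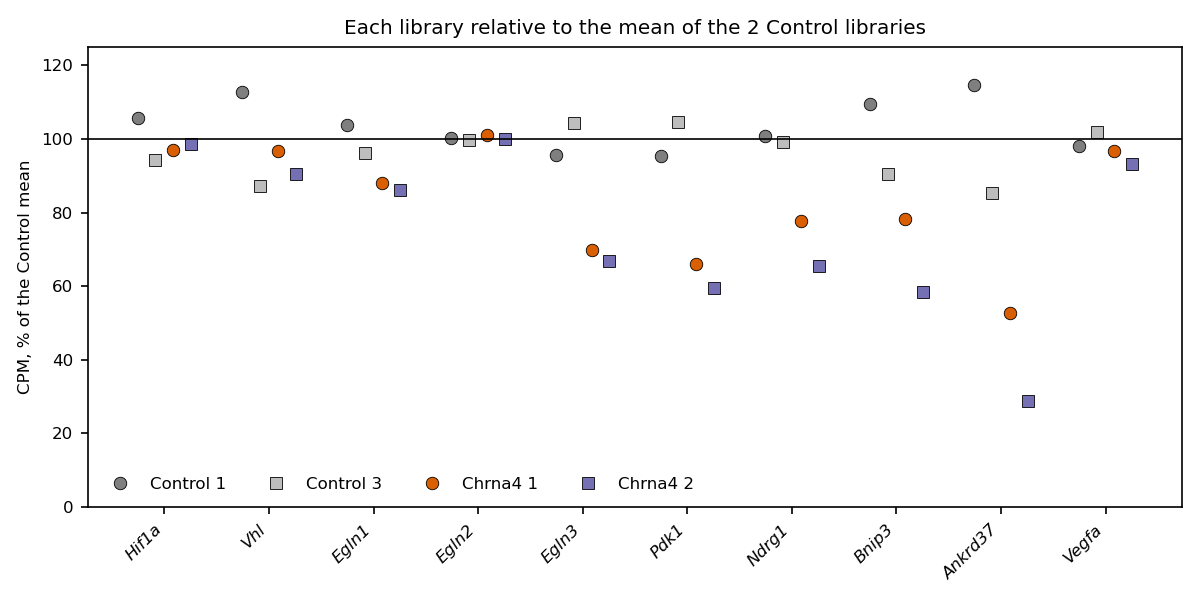
CPM of each library as a percentage of the Control mean (vertical axis) for the 10 genes, with the Control libraries in grey and the Chrna4 libraries in orange (Chrna4 1) and violet (Chrna4 2). Chrna4 2 lies under Chrna4 1 for Pdk1, Ndrg1, Bnip3 and Ankrd37, and the pair is nearly level for Egln2 and Hif1a.

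The authors' deposited table, whose log2 fold changes were turned to Chrna4 over Control, gave -0.55 for Egln3, -0.67 for Pdk1, -0.48 for Ndrg1, -0.55 for Bnip3 and -1.29 for Ankrd37. These 5 members were past an adjusted p of 0.05 in the authors' deposited table, in which 7.61% of 13422 genes were so and lower in Chrna4. The adjusted p in the authors' deposited table was 0.000282 for Bnip3 and 0.0570 for Egln1.

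A wider set of 96 other genes of the pathway, arranged by role, was read from the same fit. The table held 88 of them and 82 could be tested. Decreases were called in 18 and increases in 5, which is 22.0% and 6.10% of those tested against 6.66% and 9.26% of all genes. The median log2(CPM + 1) change was -0.12. The count depended on the library left out, and so did the background. When Control 1 was dropped, 26 were lower and 9 higher, which is 31.7% and 11.0% against 11.5% and 14.3% of all genes in that fit. Dropping Control 3 gave 29 and 13, or 35.4% and 15.9% against 11.5% and 15.2%. Dropping Chrna4 1 gave 15 and 2, or 18.3% and 2.44% against 3.54% and 5.66%. Dropping Chrna4 2 gave 5 and 1, or 6.10% and 1.22% against 2.87% and 5.35%. With library totals as the scaling the count was 29 lower and 4 higher, or 35.4% and 4.88% against 10.4% and 7.19%. As with the members, Chrna4 1 was above Chrna4 2 for 60 of the 82 genes, and for 52 of the 67 targets among them.

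Of 15 tested genes of the HIF machinery, the subunits and partners that make or destroy HIF, 1 fell and 1 rose. Each is 6.67% of the list, which is no more than the 6.66% lower and 9.26% higher among all genes tested would give. Epas1, which encodes the HIF-2 alpha subunit, fell from 5.17 ± 0.557 to 3.00 ± 0.215 CPM (log2 -0.62, adjusted p = 0.0216 by limma). Siah2, a ubiquitin ligase that targets prolyl hydroxylases, rose from 15.5 ± 0.815 to 21.2 ± 1.91 CPM (log2 0.43, adjusted p = 0.0159 by limma). The Epas1 call was lost without Control 3, Chrna4 1 or Chrna4 2, and that of Siah2 without Chrna4 2. The list median was 0.02, and it ran from -0.05 to 0.01 with 1 library left out. With library totals 3 fell and 1 rose, against 10.4% and 7.19% of all genes in that fit.

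In the list of mitochondrial targets, which also holds the MYC antagonist gene Mxi1, 3 of 6 tested fell and 0 rose (median log2 -0.28). Bnip3l, the sister mitophagy receptor of Bnip3, fell from 102 ± 11.5 to 72.2 ± 8.46 CPM (log2 -0.49, adjusted p = 0.00353 by limma). Mxi1, which antagonises MYC, fell from 36.8 ± 1.94 to 22.9 ± 3.63 CPM (log2 -0.67, adjusted p = 0.00117 by limma), and Fam162a from 48.4 ± 1.57 to 37.9 ± 2.35 CPM. In each of these 3 genes Chrna4 2 was again the lowest library. Fam162a lost its call without Chrna4 2, at a log2 change of -0.28. The list median ran from -0.32 to -0.25 with 1 library left out, and without Control 3 a rise was called as well. With library totals 4 of the 6 fell and 0 rose, against 10.4% and 7.19% of all genes in that fit.

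Among glucose and glycogen genes 6 of 22 tested fell and 1 rose (median log2 -0.13). These are 27.3% and 4.55%, against 6.66% and 9.26% of all genes tested. Aldoc, an aldolase gene, fell from 8.73 ± 0.110 to 3.67 ± 0.362 CPM (log2 -1.06, adjusted p = 0.000318 by limma), and here Chrna4 1 was the lower library, at 3.41 against 3.93 CPM. Pfkl, the liver phosphofructokinase gene, fell by 17.1% and Gbe1, the glycogen branching enzyme gene, by 28.7%. Hk2, a hexokinase gene, rose from 55.1 ± 0.875 to 64.5 ± 0.873 CPM (limma, adjusted p = 0.0450). Hk2 falls outside the naming rule and was picked with its value known. With 1 library left out the list median ran from -0.19 to -0.08. Pfkl lost its call without Chrna4 2, at a log2 change of -0.23. With library totals 8 of the 22 fell and 0 rose, against 10.4% and 7.19% of all genes in that fit.

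Secreted factors and their receptors moved in both directions, with 1 of 9 lower and 2 higher (median log2 0.10). By share this was 11.1% and 22.2%, against 6.66% and 9.26% of all genes tested. Igfbp3, which binds insulin-like growth factors, rose from 51.9 ± 1.75 to 69.0 ± 1.16 CPM (log2 0.41, adjusted p = 0.00171 by limma). Flt1, a receptor for VEGFA, fell from 25.6 ± 1.39 to 18.5 ± 1.55 CPM. The Flt1 call was lost without Chrna4 2. The rises did not all keep their call without Chrna4 1 or without Chrna4 2. The list median ran from 0.06 to 0.13 with 1 library left out. With library totals 2 genes fell and 2 rose, against 10.4% and 7.19% of all genes in that fit.

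Of 17 regulators and stress genes 3 fell and 1 rose, among them Hilpda, an inhibitor of lipid droplet breakdown (49.0 ± 2.81 to 35.8 ± 2.99 CPM), Ccng2, a cyclin that restrains proliferation (43.4 ± 1.85 to 31.8 ± 2.53 CPM), and the repressor gene Bhlhe41, which rose (47.3 ± 1.68 to 58.0 ± 1.48 CPM). Of 7 genes of collagen modification and protein folding 2 fell, the prolyl 4-hydroxylase gene P4ha2 (66.4 ± 0.962 to 53.4 ± 3.30 CPM) and the oxidase gene Ero1a (258 ± 32.2 to 199 ± 19.6 CPM). Of 6 iron genes 2 fell, the transferrin receptor gene Tfrc (214 ± 26.9 to 169 ± 4.77 CPM) and the iron exporter gene Slc40a1 (86.4 ± 5.86 to 73.6 ± 0.0923 CPM). Without Chrna4 2 none of these 7 was called by limma, and 0 genes of these lists passed in that fit. In the main fit the shares that fell were 17.6%, 28.6% and 33.3% in the order of the lists, against 6.66% of all genes tested. The shares that rose were 5.88%, 0% and 0%, against 9.26%. The list medians were -0.12 for regulators and stress genes, -0.15 for the collagen list and -0.19 for the iron list. With 1 library left out they ran from -0.15 to -0.05, from -0.19 to -0.12 and from -0.20 to -0.14. With library totals 6 regulators and stress genes fell and 1 rose. In that fit 4 of the collagen list and 2 of the iron list fell and 0 rose, against 10.4% and 7.19% of all genes. The calls of Bhlhe41 and Slc40a1 were also lost without Chrna4 1, and that of Slc40a1 without Control 1 (adjusted p = 0.0729 by limma) and with DESeq2 (adjusted p = 0.0615).

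**Figure D4:**
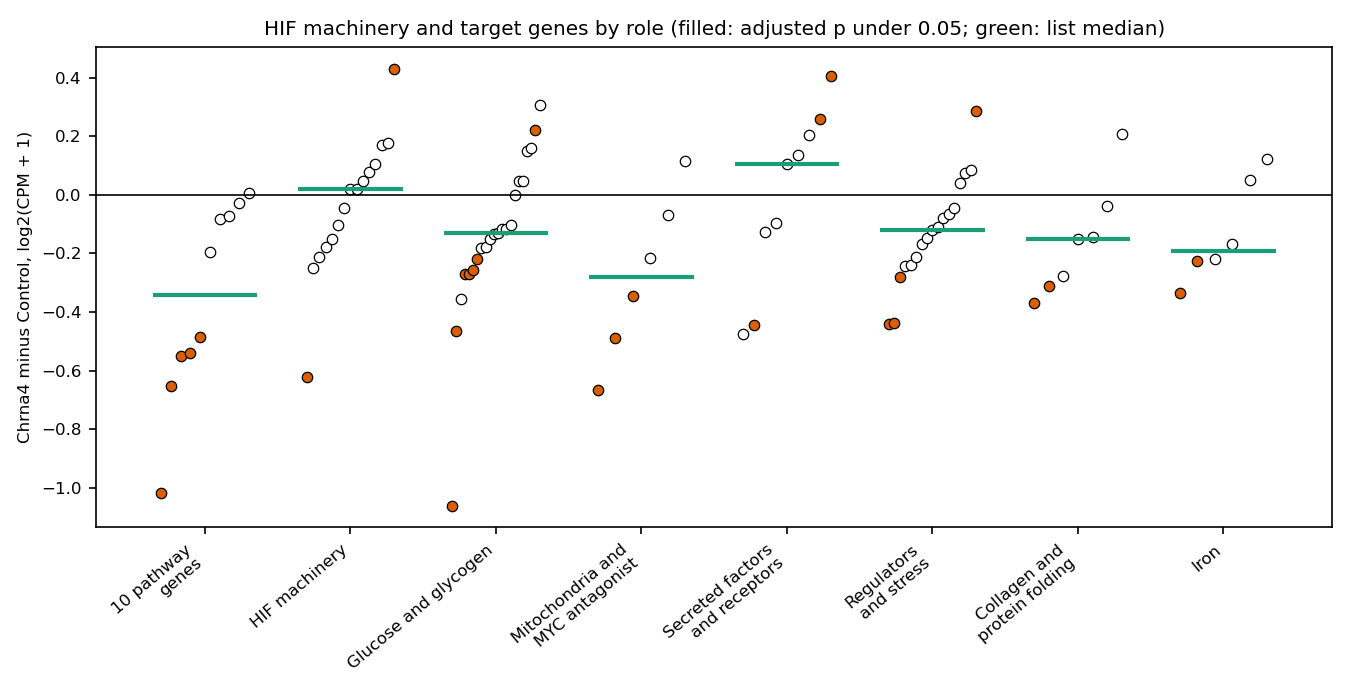
Difference between Chrna4 and Control in log2(CPM + 1) (vertical axis) for the tested genes of each role, filled where the adjusted p by limma-trend was under 0.05, with the list median in green. Of the 82 genes outside the 10, 18 are filled below 0 and 5 above, and Aldoc is the lowest at -1.06.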

How the data were processed

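RNA from 4 AML12 samples was polyA-selected and sequenced as paired reads of 150 bases, per the labels' protocols. TopHat2, HTSeq and the builds mm10 and GRCm38 are named in the submitters' processing notes, without versions or settings. The authors deposited a per-library signal, CPM relative to a scaled library size, and their own comparison as log2 fold changes, p-values and adjusted p-values, per the file headers. In each column 100% of values were whole multiples of 1 step within 0.01 reads, so reads were recovered. TMM scaling of those reads gave the deposited values back.

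Chrna4 was compared with Control by limma-trend on log2(CPM + 1) in limma 3.58.1 under R 4.3.3. It covered the 11298 genes whose mean reached 1 CPM, p-values were adjusted by Benjamini-Hochberg, and 0.05 was the threshold. The fit had 2 residual degrees of freedom and 9.55 prior ones. On recovered reads edgeR 4.0.16 (quasi-likelihood) called 1811 genes and DESeq2 1.42.0 called 1584, against 1798 by limma. Library ratios carry exact binomial intervals, which cover counting error only, since amplified reads lack molecular identifiers. Coordinates and exon lengths are from GENCODE M21 on GRCm38, promoters from RefSeq on GRCm38.p6, and transcript matches from BLAST 2.17.0.

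Members, lists and tests were chosen with earlier results of these data known. The text names the 10 members, Chrna4 for the labels, and from each of 7 wider lists up to 3 called genes of smallest adjusted p; 1 gene the rule takes is not reported here. Alternatives were other scalings, filters, a pseudocount of 0.1, a threshold of 0.01, the count tools, limma-voom, and each library left out.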

Additional observations from a re-analysis of the deposited data

How the results depend on the processing

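No paired analysis was possible because the groups share replicate number 1 alone. Of the 10 members, 5 fell in the main analysis, where 6.66% of all genes tested were lower. Over the alternatives that kept 2 libraries per group the count ran from 4 to 6. It was 4 with a minimum of 5 CPM, which leaves Ankrd37 untested, and with DESeq2 (Bnip3 lost), against 6.99% and 5.43% of all genes. It was 6 with library totals (Egln1 added), against 10.4% of all genes. Without Chrna4 2 the log2 change of Bnip3 was -0.34 and its call was lost. Without Control 3 the log2 differences of Egln1 and Vhl were -0.25 and -0.26. Pdk1, Ndrg1 and Egln3 kept direction and call under each alternative run, and Ankrd37 under each that tested it. Signs turned in fits where the gene did not pass: Hif1a at 0.052 and Vhl at 0.096 without Control 1, and Egln2 at -0.047 with library totals and -0.0011 without Chrna4 1. The cause was not tested. With 1 library left out the log2 difference ranged from -0.11 to 0.052 for Hif1a, -0.26 to 0.096 for Vhl and -0.0011 to 0.014 for Egln2.

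Without 1 library the genes called in all ranged from 928 to 3006, the lower ones from 324 to 1296 and the higher ones from 604 to 1712. The wider pathway genes then ranged from 5 to 29 lower and from 1 to 13 higher. In such fits the spread comes from the remaining pair alone, the lone library being assumed to vary alike. At a threshold of 0.01, 963 genes were called, 293 lower and 670 higher, with 7 lower and 2 higher in the wider set. With library totals 1179 genes were lower and 812 higher, against 752 and 1046, and 29 of the lower ones were in the wider set. That scaling moved the median of all genes by -0.05. Of 375 single-gene values under alternatives, 337 kept direction and call, 31 lost the call, 3 gained it and 4 turned sign. Depth limits Ankrd37 most, with 50 to 204 reads per library.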
